A study of Mus musculus with 4 samples.

Results

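The mitosis and G2/M genes examined here are 44 genes, chosen by name from the 32285 features of the count tables, whose products act between the end of DNA replication and the separation of daughter cells. They were followed through injury of the tibial muscle of Nse-Bmp4 mice, a line that forms bone in muscle after trauma. Each of the 4 sections was a Visium array, on which a grid of barcoded spots captures the RNA of the tissue above it, so that a value is a number of UMIs (unique molecular identifiers, counted as molecules) per gene and spot. The design asks where and when dividing cells appear as injured muscle passes through inflammation to ectopic cartilage and bone.

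All 4 groups shared 1 genotype, a mouse Bmp4 cDNA driven by the rat neuron-specific enolase promoter on a C57BL/6 background, at 6 to 8 weeks of age. Day 0 was uninjured muscle, and days 1, 3 and 7 were muscle taken that many days after a cardiotoxin injection. No mouse without the transgene and no sham injection was among the sections analysed here, so what belongs to the injury and what to the transgene cannot be told apart. Each day had 1 section, and the labels say that 3 muscles were mixed for a group. With 1 section per day there was no spread between animals to test against, no p-value was computed, and all intervals below are exact 95% intervals that cover counting error only. A spot holds RNA of several cells, so that more cells of a type and more RNA per cell cannot be told apart.

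Cells enter mitosis when CDK1 bound to cyclins A and B becomes active, with Polo-like and Aurora kinases amplifying the switch. Condensins and topoisomerase II then compact the chromosomes, kinetochores attach them to a spindle built by kinesins and microtubule-bundling proteins, and the spindle checkpoint holds back the anaphase-promoting complex until every chromosome is attached. Most of these genes are switched off in resting cells and transcribed late in the cycle, and a pair of promoter elements is known for this timing, the CCAAT box, bound by NF-Y, and the cell cycle homology region, a short element rich in A and T read by the MuvB complexes.

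The letters of both elements were found in a larger share of these genes' promoters than of promoters at large, given here as shares without a test. RefSeq start sites of build GRCm38.p6 gave windows of 300 bases, from 250 before to 50 after the start, for 36 of the 44 genes. The letters CCAAT were found on either strand in 28 of the 36 genes (77.8%), against 41.1% of all 27025 genes of the table and 15 of 23 S phase genes (65.2%). TTTGAA was found in 27 of 36, against 20.2% of all genes and 3 of 23 S phase genes (13.0%). TTTAAA was found in 10 of 36 (27.8%), against 14.9% of all genes, and 26 of 36 genes (72.2%) held CCAAT together with TTTGAA or TTTAAA, against 12.2% of all genes. Both strands were searched, TTTAAA reads the same on both, and in the windows printed here no motif overlaps another. The 6 windows below are shown because they belong to genes on which the results turn, namely the highest day 3 ratios to day 0 among genes with a single window (Kif2c, Plk1), the lowest (Mki67, Kif11), and the cyclin B2 and CDK1 genes. Each is written 5′ to 3′ along the gene, and capitals mark the 3 motifs or their reverse complements.
Plk1, chr7:122159185-122159484, plus strand: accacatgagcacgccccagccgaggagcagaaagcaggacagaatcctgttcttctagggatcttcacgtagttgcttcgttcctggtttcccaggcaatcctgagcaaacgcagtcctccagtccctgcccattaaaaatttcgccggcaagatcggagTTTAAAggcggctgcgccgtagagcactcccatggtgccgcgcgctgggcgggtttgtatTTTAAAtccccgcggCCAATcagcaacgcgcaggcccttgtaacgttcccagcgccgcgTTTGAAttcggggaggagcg
Kif2c, chr4:117178723-117179022, minus strand: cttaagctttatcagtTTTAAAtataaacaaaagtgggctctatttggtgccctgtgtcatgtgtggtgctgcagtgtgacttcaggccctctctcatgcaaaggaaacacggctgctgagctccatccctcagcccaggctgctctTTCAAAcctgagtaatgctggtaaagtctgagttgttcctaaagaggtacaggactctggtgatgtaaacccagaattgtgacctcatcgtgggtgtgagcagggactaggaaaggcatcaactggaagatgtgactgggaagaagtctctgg
Ccnb2, chr9:70421505-70421804, minus strand: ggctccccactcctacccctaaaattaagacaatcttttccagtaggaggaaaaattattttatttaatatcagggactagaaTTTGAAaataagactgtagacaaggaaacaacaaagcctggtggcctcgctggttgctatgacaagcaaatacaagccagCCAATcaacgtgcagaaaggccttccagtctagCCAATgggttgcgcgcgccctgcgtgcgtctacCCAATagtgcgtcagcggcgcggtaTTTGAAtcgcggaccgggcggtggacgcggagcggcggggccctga
Cdk1, chr10:69352863-69353162, minus strand: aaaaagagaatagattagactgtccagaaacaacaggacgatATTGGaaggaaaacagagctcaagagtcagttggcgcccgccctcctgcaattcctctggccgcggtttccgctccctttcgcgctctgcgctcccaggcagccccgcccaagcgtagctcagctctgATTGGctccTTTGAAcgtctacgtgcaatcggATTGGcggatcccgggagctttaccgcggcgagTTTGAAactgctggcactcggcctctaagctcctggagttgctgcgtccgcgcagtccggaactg
Mki67, chr7:135716330-135716629, minus strand: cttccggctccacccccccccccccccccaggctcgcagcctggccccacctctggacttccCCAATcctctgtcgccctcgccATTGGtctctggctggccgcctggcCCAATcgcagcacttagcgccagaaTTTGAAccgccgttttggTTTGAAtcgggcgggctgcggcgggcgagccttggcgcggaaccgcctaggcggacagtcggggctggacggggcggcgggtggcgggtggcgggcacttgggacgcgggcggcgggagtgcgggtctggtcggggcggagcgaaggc
Kif11, chr19:37376132-37376431, plus strand: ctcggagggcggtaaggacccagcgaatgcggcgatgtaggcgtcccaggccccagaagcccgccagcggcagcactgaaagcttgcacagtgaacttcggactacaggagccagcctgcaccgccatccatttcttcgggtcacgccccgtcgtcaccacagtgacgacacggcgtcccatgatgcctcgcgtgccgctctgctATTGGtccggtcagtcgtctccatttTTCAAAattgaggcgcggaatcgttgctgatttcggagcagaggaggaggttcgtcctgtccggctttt
In the Ccnb2 window 3 CCAAT boxes stood 87, 54 and 21 bases before the start, with TTTGAA 4 bases after it. The Cdk1 window held 3 reverse CCAAT boxes and 2 TTTGAA, the nearer TTTGAA 15 bases before the start. Mki67, with a low day 3 ratio, also had 3 CCAAT and 2 TTTGAA, and Kif2c, with a high one, had no CCAAT, so the motif counts of these 6 windows did not order their day 3 values. A match of letters is a description and does not show binding.

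The sections held from 2107 (day 0) to 3032 (day 7) spots and from 16777832 (day 1) to 56113066 (day 3) UMIs. Day 1 was the shallowest, with a median of 6322 UMIs per spot and 513 spots under 2000 UMIs, against 9 to 84 such spots at the other days. Muscle was the tissue in every section: 14 adult myofibre genes made up 273538, 148816, 90005 and 159288 CPM (counts per 1000000 UMIs of the section) at days 0, 1, 3 and 7. Since myofibre, mitochondrial and haemoglobin RNA took from 20.7% (day 3) to 41.0% (day 0) of the UMIs, a total without them, TMM factors and DESeq2 size factors were tried beside CPM. With TMM factors the log2 ratios of all genes to day 0 shift by -0.19, -0.55 and -0.61 for days 1, 3 and 7, and the medians below are also given on that scale. The comparisons of days 1, 3 and 7 with day 0 share the day 0 section.

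The 44 genes together were at 172, 201, 975 and 344 CPM at days 0, 1, 3 and 7, with 95% intervals of 169 to 176, 195 to 208, 967 to 984 and 339 to 350. The day 3 section stood apart from the other 3 in every gene of the set. All 44 genes were at least 2-fold higher at day 3 than at day 0, a step that 33.3% of all features measured also took. Their median log2 ratio was 2.50, or 1.95 with TMM factors, against 0.58 over all features, and the lowest of the 44 was Smc4 at 1.51. Against day 1, too, all 44 were at least 2-fold higher at day 3, where 18.1% of features were, with a median log2 ratio of 2.36. From day 3 to day 7 the median was -1.61, and 41 of 44 genes were at least 2-fold lower at day 7, against 11.8% of features. The other 3, Nuf2, Smc4 and Ttk, had log2 ratios of -0.69, -0.72 and -0.75.

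Days 1 and 7 lay much closer to day 0. At day 1 the median log2 ratio was 0.35, or 0.16 with TMM factors, against 0.15 over all features. Only 2 of 44 genes, Aurkb and Gtse1, were at least 2-fold higher, fewer than the 17.4% of all features, and none was at least 2-fold lower (1, Ccnb2, with each of the other scalings), against 11.4% of all features. The counting interval lay above no change for 18 of the 44 genes and below it for 4, Ccnb2, Aurka, Kif11 and Mki67. Over all features it lay above for 6177 and below for 3753 of 15091, so the 18 are near the share of all features. At day 7 the median was 0.96, against 0.65 over all features. Of the 44 genes 21 were at least 2-fold higher, where 32.7% of all features were. With TMM factors the day 7 median was 0.35, against 0.05 over all features. On that scale 5 genes were at least 2-fold higher, fewer than the 15.7% of all features. With the total without muscle genes the median was 0.67, against 0.36, and 14 genes were at least 2-fold higher, against 22.5% of all features.

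**Figure D1:**
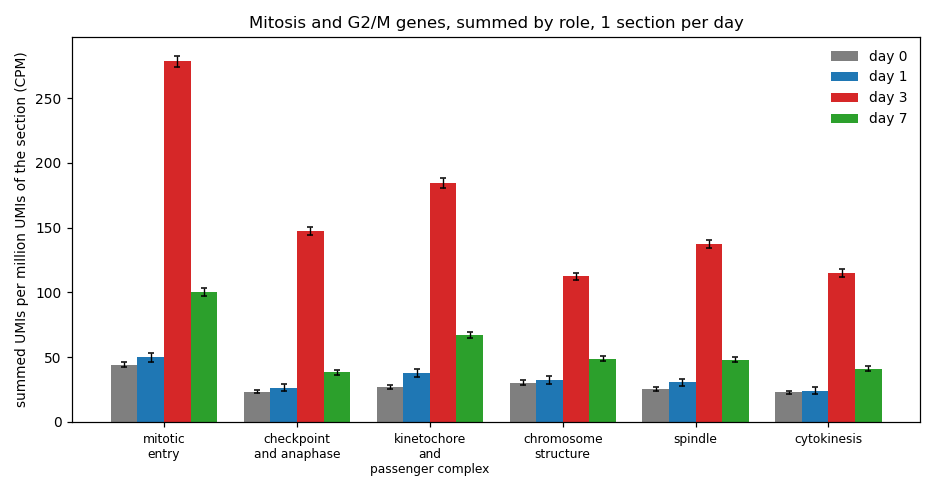
Summed UMIs of each of the 6 role groups as CPM of the section (vertical axis), with 1 bar per day and section and bars for the exact 95% counting interval. In each group the day 3 bar is the tallest, and day 7 comes next; days 0 and 1 lie below, from 44.01 and 49.9 CPM for mitotic entry to 22.8 and 24.2 CPM for cytokinesis.

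Genes of mitotic entry were at 44.01, 49.9, 278 and 101 CPM at days 0, 1, 3 and 7, and values below are given in this order of days. Day 3 was 6.33 times day 0 (6.03 to 6.64). At day 7, 7 of the 9 genes were at least 2-fold higher than at day 0, against 32.7% of all features. Cdk1, the kinase that drives entry, was at 7.73, 12.0, 57.5 and 26.1 CPM, and its log2 ratio of 1.75 (1.58 to 1.94) at day 7 was the second highest of the 44. Its partner Ccna2, cyclin A2, which also acts in S phase, was at 7.52, 6.08, 38.1 and 15.3 CPM, with the day 1 interval reaching from -0.64 to 0.02. Ccnb2, cyclin B2, was at 3.67, 1.85, 21.5 and 8.94 CPM. It had the lowest day 1 log2 ratio of all 44, -0.99 (-1.59 to -0.43), while at day 3 it was at 2.55, close to the median of the set.

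Plk1, the Polo-like kinase that activates CDK1 and matures centrosomes, was at 2.19, 2.74, 21.6 and 6.53 CPM, and its day 3 log2 ratio of 3.30 (3.00 to 3.62) shared the top of the set with Kif2c. Cks2, a small subunit that docks CDK1 on its substrates, was at 7.48, 12.4, 50.7 and 13.6 CPM. Unlike Ccnb2, it was higher at day 1 than at day 0, with a log2 ratio of 0.73 (0.47 to 0.98). Aurka, the centrosomal Aurora kinase, went the other way, at 6.52, 3.87, 25.1 and 7.70 CPM. Its log2 ratio was -0.75 (-1.16 to -0.36) at day 1, and at day 7 it was 0.24 (0.01 to 0.47), the smallest of the set and below 0 with TMM factors, DESeq2 size factors and the total without muscle genes.

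In the group of checkpoint and anaphase genes the sums were 23.5, 26.5, 147 and 38.4 CPM. Day 3 was 6.28 times day 0 (5.89 to 6.71), and day 7 was 0.261 of day 3 (0.247 to 0.275), the smallest such fraction among the 6 groups. Bub1b, the BubR1 kinase that inhibits CDC20 until chromosomes are attached, was at 2.05, 2.98, 17.7 and 4.61 CPM. Cdc20, the activator of the anaphase-promoting complex that BubR1 restrains, was at 3.92, 5.60, 33.6 and 9.99 CPM, so the inhibitor and its target had like day 3 log2 ratios of 3.11 and 3.10. Ube2c, the ubiquitin-conjugating enzyme of the anaphase-promoting complex, was at 15.5, 14.6, 83.5 and 18.8 CPM. Its log2 ratio of day 7 to day 3, -2.15, was the lowest of the 44 genes, and its day 7 log2 ratio to day 0 of 0.29 turned below 0 under each of the 3 other scalings.

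Kinetochore and passenger complex genes had the largest step of the groups in summed CPM, at 26.6, 37.8, 184 and 67.1 CPM. Day 3 was 6.92 times day 0 (6.51 to 7.36), and day 1 was 1.42 times day 0 (1.29 to 1.57). By the median log2 ratio of day 3 to day 0, checkpoint and anaphase genes stood higher, at 3.03 against 2.76. Cenpa, the histone H3 variant that marks centromeres, was at 6.50, 8.11, 53.7 and 16.4 CPM. Birc5, survivin, a member of the chromosomal passenger complex, was at 6.79, 10.1, 52.3 and 21.7 CPM, with a day 7 log2 ratio of 1.68 (1.49 to 1.87).
The other passenger genes were among those that differed most at day 1. Aurkb, the kinase of the complex, was at 2.12, 5.19, 14.5 and 3.82 CPM, a day 1 log2 ratio of 1.29 (0.85 to 1.73). Cdca8, borealin, which tethers the complex to chromosomes, was at 3.49, 6.62, 23.4 and 7.55 CPM, a day 1 log2 ratio of 0.92 (0.56 to 1.29). The 3 passenger genes thus lay above the set's day 1 median of 0.35, whereas Cenpf, a late kinetochore protein, was at -0.52 (-1.17 to 0.08).

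Chromosome structure genes had the smallest step, at 30.3, 32.3, 112 and 48.9 CPM, so that day 3 was 3.71 times day 0 (3.50 to 3.94). None of the 4 genes was at least 2-fold higher at day 7, where 32.7% of all features were. Mki67, which coats mitotic chromosomes and is the usual proliferation marker, was at 11.6, 8.28, 37.5 and 16.1 CPM. Its log2 ratios for days 1, 3 and 7 were -0.49 (-0.77 to -0.22), 1.69 (1.55 to 1.83) and 0.46 (0.30 to 0.63), and the last is below 0 with TMM factors and DESeq2 size factors. Top2a, the topoisomerase that untangles sister chromatids, was at 7.45, 9.72, 40.9 and 13.5 CPM and had a day 3 log2 ratio of 2.46 (2.29 to 2.63), apart from that of Mki67. Smc4, a condensin core subunit, was at 10.2, 12.6, 29.2 and 17.8 CPM, with the smallest day 3 ratio to day 0 of the 44 genes. Levels are not compared between genes here, since UMI counts at transcript ends depend on each transcript.

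Spindle genes were at 25.2, 30.6, 138 and 48.1 CPM and spanned nearly the whole range of the set at day 3. Kif2c, a kinesin that depolymerises microtubules at kinetochores, was at 1.07, 2.09, 10.6 and 2.87 CPM, with a day 3 log2 ratio of 3.30 (2.87 to 3.76). Gtse1, a microtubule-binding protein that restrains KIF2C, was at 0.75, 1.91, 7.31 and 2.58 CPM, with log2 ratios of 1.34, 3.28 and 1.78 at days 1, 3 and 7. It was among the 3 highest on each day, on counts of 33, 32, 410 and 108 UMIs. Kif11, the Eg5 motor that pushes spindle poles apart, was at the other end, at 3.40, 2.03, 11.1 and 5.04 CPM, with log2 ratios of -0.74 (-1.33 to -0.20) and 1.71 (1.45 to 1.97) at days 1 and 3.

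Tpx2, which activates Aurora A on the spindle, was at 3.97, 6.56, 22.2 and 5.43 CPM. Tacc3, which crosslinks spindle microtubules, was at 3.87, 5.01, 22.8 and 10.2 CPM, and Ckap2l, a spindle pole protein, was at 3.19, 4.17, 17.8 and 5.64 CPM. At day 3 these 3 genes were nearly level, with log2 ratios of 2.48, 2.56 and 2.48, but at day 7 Tacc3 was at 1.39 (1.13 to 1.66) and Tpx2 at 0.45 (0.16 to 0.75), the latter below 0 with TMM and DESeq2 factors. Kif4, a chromosome-bound kinesin of the anaphase spindle, was at 1.76, 1.37, 7.63 and 2.34 CPM, and its day 7 interval of -0.03 to 0.87 was the only one of the 44 that included no change.

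Cytokinesis genes were at 22.8, 24.2, 115 and 41.2 CPM. Prc1, which bundles the midzone of the anaphase spindle, was at 5.20, 4.65, 20.9 and 10.4 CPM. Racgap1, a subunit of centralspindlin, was at 6.20, 8.70, 28.2 and 11.02 CPM, and Kif20a, the kinesin that brings the passenger complex to the midzone, was at 3.19, 3.16, 20.4 and 4.97 CPM. The group's median at day 1 was the only negative one, -0.16, with 2 genes higher and 5 lower than at day 0. At day 3 its 7 genes had log2 ratios between 1.96 (Kif20b) and 2.90 (Anln). None was at least 2-fold higher at day 7, where 32.7% of all features were. Kif20b was the only gene of the 44 with under 10 UMIs in a section, 9 at day 1, so its day 1 log2 ratio of -0.57 runs from -1.81 to 0.51.

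**Figure D2:**
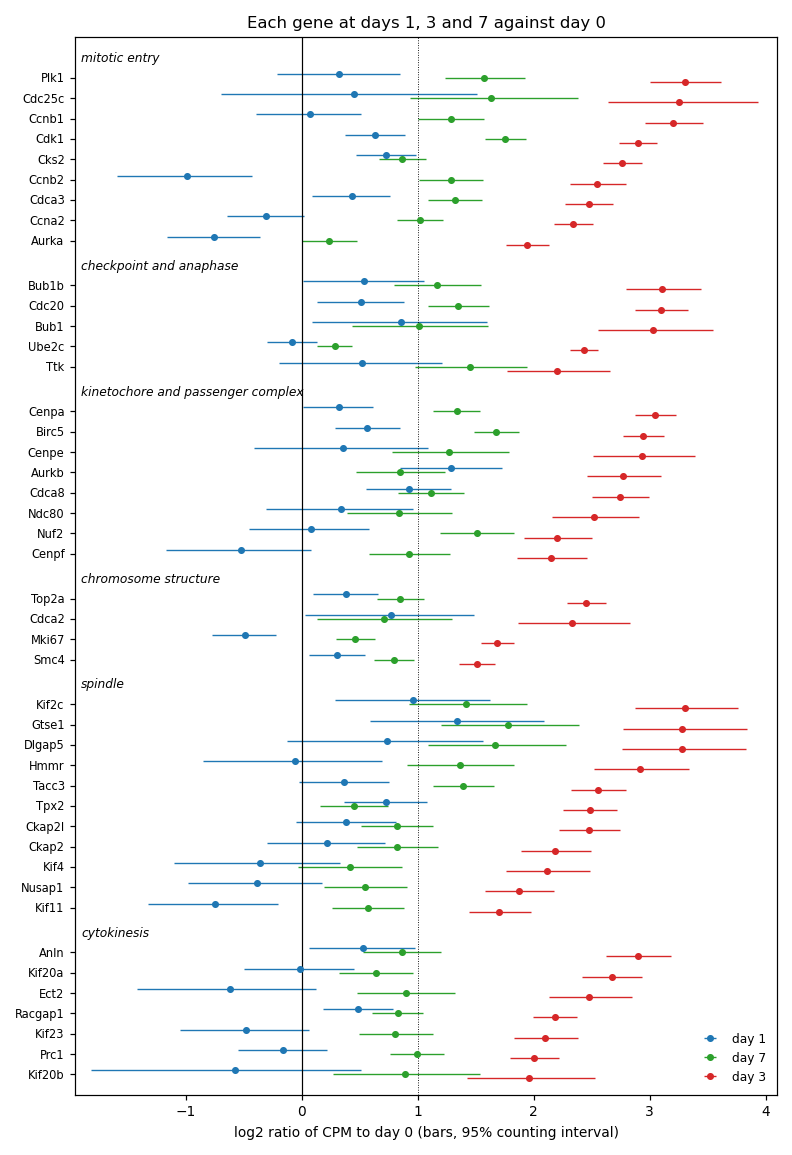
Log2 ratio of CPM to day 0 (horizontal axis) for each of the 44 genes, grouped by role and ordered by day 3, with points for days 1, 3 and 7, lines for the exact 95% counting interval and a dotted line at a 2-fold difference. All 44 day 3 points lie to the right of the dotted line, from 1.51 (Smc4) to 3.30, while day 1 points fall on both sides of 0; the scale is that of CPM, and TMM factors move every day 7 point by -0.61, which takes 7 genes below 0.

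At day 1 RNA of DNA replication was high while RNA of mitosis was not. A list of 30 S phase genes (replication licensing, nucleotide supply and fork proteins) was at 167, 445, 786 and 324 CPM. All 30 were higher at day 1 than at day 0, and 22 were at least 2-fold higher, against 17.4% of all features. Their median log2 ratio was 1.38, where that of the mitosis genes was 0.35. The ratio of mitosis to S phase UMIs in a section, which no scaling of the section changes, was 1.03 (0.998 to 1.06) in uninjured muscle and 0.452 (0.434 to 0.471), 1.24 (1.22 to 1.26) and 1.06 (1.04 to 1.09) at days 1, 3 and 7. Day 1 thus stood apart from the other 3 sections, beyond the counting intervals. The day 1 section is also the shallowest, and the part of depth in this was not tested.

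Among the S phase genes the largest day 3 ratios were those of Rrm2, the small subunit of ribonucleotide reductase, at 4.83, 17.2, 77.6 and 14.0 CPM, of Gins2, of the replicative helicase, at 1.07, 7.69, 14.4 and 3.82 CPM, and of Cdt1, which loads that helicase, at 2.92, 21.2, 25.3 and 8.15 CPM. Cdt1 at day 3 was only 0.26 (0.09 to 0.43) above day 1 on the log2 scale. The smallest were those of Ung, a uracil glycosylase, with a day 3 log2 ratio of 0.14, Rrm1, the large reductase subunit, with 1.45, and Slbp, which binds histone mRNA, with 1.46.

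A list of 35 other mitosis genes behaved like the 44 at day 1, with a median log2 ratio of 0.38. At that day 4 genes were at least 2-fold higher and 4 lower, against 17.4% and 11.4% of all features. At day 3 the median was 2.25, with 31 of 35 at least 2-fold higher, against 33.3% of all features. Spc24 of the outer kinetochore, Mybl2, a transcription factor of the MuvB complexes, and separase (Espl1) had its largest day 3 log2 ratios, 3.14, 3.10 and 3.00. Not every gene of mitosis followed. Securin (Pttg1), which inhibits separase, was at 55.8, 62.2, 51.8 and 62.5 CPM, and its day 3 log2 ratio was -0.11. The spindle gene Fam83d was at 7.45, 1.07, 7.18 and 6.41 CPM and Wee1, the kinase that holds CDK1 inactive, at 7.48, 8.05, 8.38 and 13.6 CPM.

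In the list of 11 G1 and G1/S regulators, 9 were at least 2-fold higher at day 3, against 33.3% of all features. Ccne1 (cyclin E1, log2 ratio 3.94), Cdk6 (2.94) and Cdk4 (2.49) led, with Ccnd2 at -0.66, E2f3 at 0.46 and Ccnd1 at 1.03 at the low end. Of the 10 cell cycle inhibitors, 5 were at least 2-fold higher at day 3, against 33.3% of all features. Only 1 was at least 2-fold lower, as were 1344 of 16281 features. Cdkn1c, the p57 inhibitor, was at 94.98, 12.8, 40.4 and 70.9 CPM, with a day 1 log2 ratio of -2.89, and Cdkn1b (p27) was at 31.0, 13.8, 22.03 and 37.6 CPM. Rbl2, a pocket protein of the complex that represses mitotic genes in resting cells, had a day 3 log2 ratio of 0.08. Cdkn2a had the highest day 3 log2 ratio of the list, 4.49, on a level of only 0.09 CPM at day 0, and Rbl1 and Cdkn1a followed with 1.58 and 1.28.

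**Figure D3:**
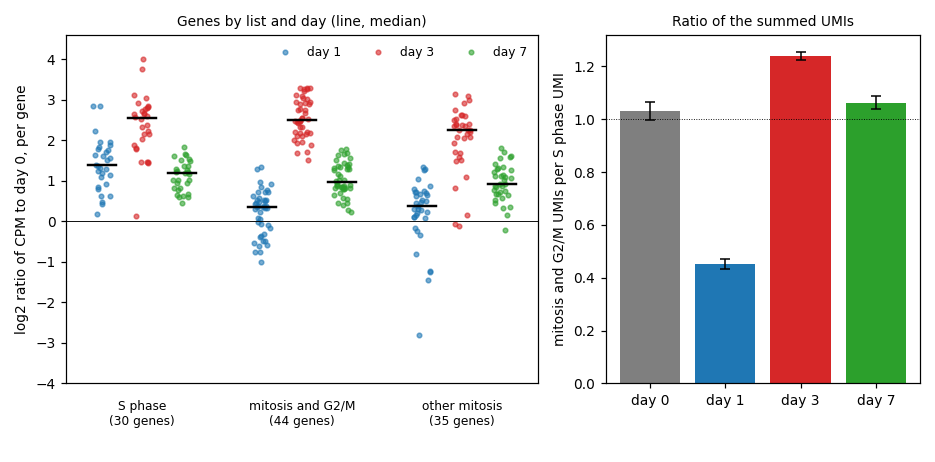
Left, log2 ratio of CPM to day 0 for each gene (1 point per gene, black line at the median) of the S phase, mitosis and G2/M and other mitosis lists at days 1, 3 and 7; right, UMIs of the 44 mitosis and G2/M genes per UMI of the 30 S phase genes in each section, with exact 95% intervals. At day 1 the S phase median is 1.38 and those of the mitosis lists are 0.35 and 0.38, and the day 1 bar stands at 0.452 between bars of 1.03 and 1.24.

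Within the sections the 44 genes were sparse. Among spots of at least 2000 UMIs, which numbered 2090, 2154, 3020 and 2948, a spot held a median of 2, 1, 8 and 2 UMIs of the set. Mki67 was seen in 377, 119, 1071 and 494 of these spots, and at least 10 of the 44 genes were seen together in 104, 21, 1201 and 317 spots. A single day 3 spot held 42 of the 44. To compare days at 1 depth each spot was thinned to 2000 UMIs, after which 26.3%, 28.9%, 63.6% and 39.0% of spots kept a UMI of the set, against 84.3%, 58.3%, 94.4% and 80.3% before thinning. The intervals of days 0 and 1, 24.4% to 28.2% and 27.0% to 30.9%, overlapped, and those of day 3 (61.8% to 65.3%) and day 7 (37.2% to 40.7%) lay above both. At a depth of 5000 UMIs the order of days 0 and 1 turned, to 49.8% and 46.3%.

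The question of where in the tissue the genes lay was put to marker spots, the 10% of a section's spots with the highest share of UMIs in a marker list. The lists shared no gene with the set. In uninjured muscle the 10% highest in 12 monocyte and macrophage genes (led by Lyz2 and C1qa) had 179 CPM of the mitosis genes against 172 in the rest, a ratio of 1.04 (0.964 to 1.12), and the 10% highest in 8 myoblast genes (led by Myog and Myod1) had 202 against 170, a ratio of 1.19 (1.10 to 1.28). The 10% highest in 7 endothelial genes had 258 against 163, a ratio of 1.58 (1.48 to 1.69), larger than either. Cartilage genes were nearly absent from days 0, 1 and 3, at 9.89, 31.4 and 20.4 CPM for 12 genes, of which 2, 5 and 3 were at 0, and most of that was Sox9 and Col11a2, so the spots highest in that list are not cartilage before day 7.

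At day 1 the level of the genes was higher in myoblast spots than elsewhere, although most of their UMIs lay outside these spots. These 215 spots had 430 CPM of the set against 177 in the rest, a ratio of 2.43 (2.22 to 2.66), and 19.1% of its UMIs in 8.86% of all UMIs. Of 43 genes with at least 10 UMIs, 41 were higher there and 26 had an interval above 1, against 68.2% of all features higher. Birc5 was at 29.8 CPM in myoblast spots and 7.89 in the rest, Mki67 at 20.1 and 7.08, and Top2a at 22.9 and 8.43. Monocyte and macrophage spots had 312 CPM against 190, a ratio of 1.64 (1.46 to 1.83), with 37 of 43 genes higher, against 70.7% of all features. Set against each other with shared spots left out, macrophage spots had 0.707 of the level of myoblast spots (0.616 to 0.811). Spots highest in MSC (mesenchymal stromal cell) genes had a ratio of 2.11 (1.91 to 2.33), and those highest in neutrophil genes, a list that was highest of all days at day 1, a ratio of 1.42 (1.26 to 1.59). Adipocyte and endothelial spots were also above the rest, at 1.73 (1.54 to 1.93) and 1.55 (1.39 to 1.72). Tendon spots were below it, at 0.638 (0.561 to 0.723).

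At day 3 the level was higher in macrophage and in myoblast spots than in the rest of the section. They held 27.5% and 24.6% of the set's UMIs, in 15.6% and 16.3% of all UMIs. Dendritic cell, MSC, neutrophil, T/NK cell and B cell spots were also above the rest, at ratios of 1.56, 1.56, 1.55, 1.46 and 1.33. The T/NK cell and B cell lists held only 943 and 506 UMIs in the whole section, so these classes rest on few UMIs per spot. The neutrophil list was then led by Csf3r and G0s2. No share over all features was computed for these 5 classes. Endothelial, Schwann cell, hypertrophic cartilage and bone, and adipocyte spots were below the rest, at 0.779, 0.772, 0.754 and 0.400. The interval of tendon spots, at 0.989 (0.962 to 1.02), included 1. The hypertrophic cartilage and bone list held 769 UMIs at day 3, 60.9% of them Alpl and 33.7% Mmp13, so its spots need not be cartilage or bone. Macrophage spots had 1727 CPM against 837, a ratio of 2.06 (2.02 to 2.10), and all 44 genes had an interval above 1, where 71.5% of all features were higher. The ratio was 3.14 with 1 marker threshold for all sections and 1.87 with the top 5% of spots. It was 1.56 with the total without muscle genes and 0.989 in the lowest myofibre group described below. Myoblast spots had 1473 CPM against 879, a ratio of 1.68 (1.64 to 1.71), with 43 of 44 genes higher, where 73.9% of all features were. With shared spots left out, macrophage spots had 1.205 times the level of myoblast spots (1.17 to 1.24), the reverse of day 1. This order did not hold for all myoblast spots. Those outside the new fibre class described below were at 1790 CPM, against 1713 CPM in these macrophage spots, though they can include shared spots. Cdk1 had one of the wider gaps, 115 CPM in macrophage spots against 47.0 in the rest. Aurka was the exception in both, with ratios of 1.16 (1.00 to 1.33) in macrophage spots and 0.872 (0.748 to 1.01) in myoblast spots.

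Myogenic spots at day 3 differed by whether they also held RNA of new fibres. Of 302 myoblast spots, 179 were also among the 302 highest in the embryonic and perinatal genes Myh3, Myh8, Myl4 and Tnnt2, and these shared spots had 1249 CPM of the mitosis genes. Myoblast spots outside that class had 1790.3 CPM, and spots of the nascent fibre class alone 1012, a ratio of 1.77 (1.70 to 1.84). By day 7 the nascent fibre spots had 0.842 of the level of the rest (0.804 to 0.881), and myoblast spots 329 CPM against 347, a ratio of 0.947 (0.903 to 0.992), with 18 of 44 genes higher, where 69.2% of all features were. With the top 5% of spots the day 7 ratio of myoblast spots was 1.02, on the other side of 1.

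At day 7 the level was higher in cartilage spots than in the rest. The cartilage list was then at 1822 CPM, with Col2a1 and Acan its leading genes and all 12 genes detected, and the 295 spots highest in it had 1034 CPM of the mitosis genes against 269 in the rest, a ratio of 3.84 (3.70 to 3.98). They held 29.4% of the set's UMIs in 9.78% of all UMIs. All 44 genes were higher there with an interval above 1, where 65.8% of all features were higher, from Smc4 at 2.06 (1.69 to 2.48) to Ttk, a checkpoint kinase, at 6.59 (4.57 to 9.43). Cdk1 was at 90.2 CPM against 19.1, Birc5 at 76.7 against 15.8, Mki67 at 49.5 against 12.5 and Aurka, low elsewhere, at 15.4 against 6.86. By role the ratio ran from 2.99 (2.70 to 3.31) for chromosome structure to 4.31 (4.03 to 4.596) for mitotic entry.

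Spots highest in hypertrophic cartilage and bone genes had a ratio of 3.97 (3.83 to 4.12) at day 7, with an interval that overlaps that of cartilage spots, and 76.9% of cartilage spots belonged to both classes. Tendon spots had a ratio of 2.57 (2.47 to 2.66), and their overlap with cartilage spots was not counted. Endothelial, MSC and adipocyte spots had ratios of 1.65 (1.57 to 1.73), 1.63 (1.55 to 1.70) and 1.36 (1.28 to 1.44). Schwann cell spots were below the rest, at 0.831 (0.775 to 0.890). Macrophage spots had a ratio of 1.24 (1.19 to 1.30). The macrophage value was near that of all features, with median ratios of 1.26 over the 44 genes and 1.25 over all features. There 35 of 44 genes were higher, against 75.7% of all features. The macrophage ratio was 1.06 (1.01 to 1.10) for the same spots with mitochondrial, haemoglobin and myofibre UMIs left out of the totals. It was 0.988 (0.943 to 1.03) when the spots were also chosen by those totals. With shared spots left out, macrophage spots had 0.387 of the level of cartilage spots (0.368 to 0.407), and MSC spots were at 507 CPM against 1044 in cartilage spots. The ratio of mitosis to S phase UMIs was 1.46 in cartilage spots and 0.920 in myoblast spots.

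**Figure D4:**
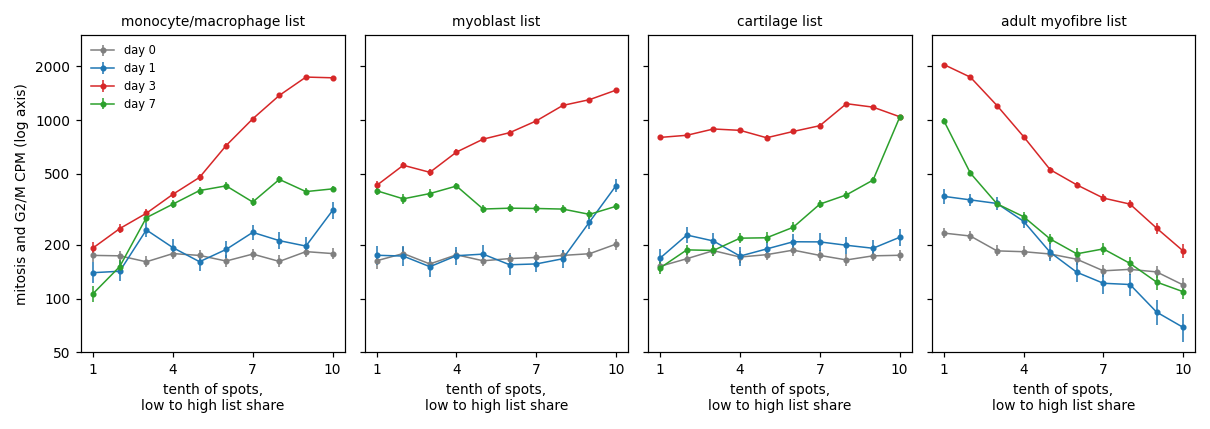
Summed CPM of the 44 genes (vertical log axis) in 10 equal groups of a section's spots, ordered from the lowest to the highest share of UMIs in the monocyte/macrophage, myoblast, cartilage and adult myofibre lists, with 1 line per day and exact 95% counting intervals. At day 3 the genes go from 192 CPM in the lowest macrophage group to 1727 in the highest; at day 7 they go from 149 to 1037 over the cartilage groups, and at days 0, 1 and 3 the lower cartilage groups are ties at no UMI of that list.

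The share of myofibre RNA moved with all of these. Spots highest in adult myofibre genes had 0.669, 0.320, 0.181 and 0.297 of the mitosis RNA of the rest at days 0, 1, 3 and 7. Macrophage spots at day 3 had 1.48% of their UMIs in that list, against 10.4% in the rest. Spots were therefore also divided into 4 equal groups by myofibre share. In the lowest group of day 3 (755 spots), which held 282 of the 302 macrophage spots, macrophage spots were at 1787 CPM and the others at 1807, a ratio of 0.989 (0.968 to 1.01), and myoblast spots had a ratio of 0.95 (0.929 to 0.972). Within that group the mitosis RNA was thus no higher where macrophage or myoblast RNA was highest, while in the next group myoblast spots had a ratio of 1.38 (1.33 to 1.44). The day 1 ratio of myoblast spots was 1.61 (1.42 to 1.82) in the lowest group and 1.90 (1.63 to 2.20) in the next, and that of macrophage spots 1.04 (0.903 to 1.19). Cartilage spots at day 7 had a ratio of 2.10 in each of the 2 groups that held at least 20 of them. Myoblast spots of day 7 had 0.55 of the level of the others in the lowest group, which held 270 of the 295 cartilage spots, and ratios of 1.14, 1.06 and 1.33 in the next 3.

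**Figure D5:**
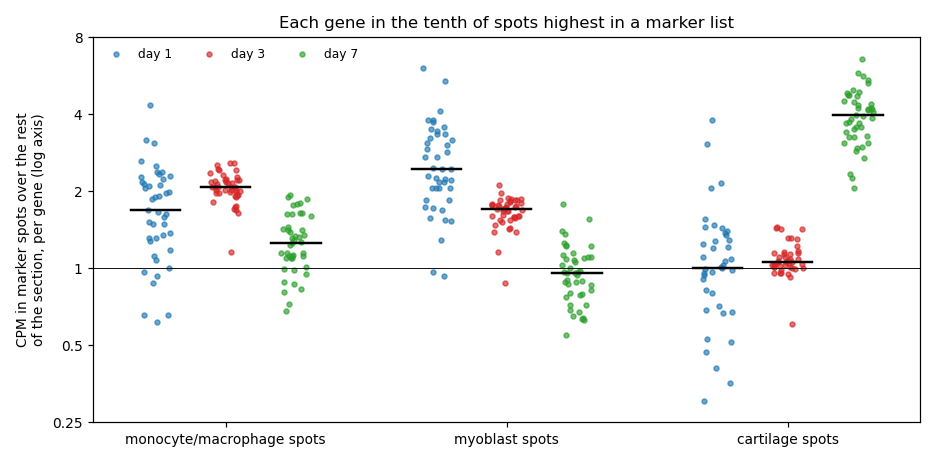
CPM in the 10% of spots highest in a marker list over CPM in the rest of the section (vertical log axis), 1 point per gene with at least 10 UMIs and a black line at the median, for monocyte/macrophage, myoblast and cartilage spots at days 1, 3 and 7; 3 genes with no UMI in the day 1 cartilage spots are not drawn. Medians at days 1, 3 and 7 are 2.44, 1.71 and 0.958 in myoblast spots. They are 1.00, 1.06 and 3.96 in the spots highest in the cartilage list, which are not cartilage before day 7.

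The 10% of spots richest in the 44 genes were also described. Since the spots were chosen by the genes, what follows re-reads the same spots and is no separate support for the values above. At day 3 these 302 spots had 2496 CPM and 35.4% of the set's UMIs, and 31.1% of them were macrophage spots. Neutrophil, myoblast, dendritic cell, MSC and T/NK cell spots made up 23.2%, 22.2%, 21.9%, 20.2% and 19.2%, and the classes overlap. Adipocyte and adult myofibre spots made up 1.32% and 0%. The 10 leading genes outside the cell cycle lists were Sfrp2, a secreted Wnt modulator (269 against 78.8 CPM), Spp1, osteopontin (2314 against 753), Id2, Pclaf, Met, Cks1b, Adam8, Snhg1, Psat1 and Npm1, at ratios from 3.41 to 2.75. Pclaf, which binds PCNA, and Cks1b, a CDK subunit, are themselves genes of proliferation.

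At day 7 the 295 richest spots had 1418 CPM and 38.2% of the set's UMIs, 54.2% of them were cartilage spots, 53.9% hypertrophic cartilage and bone spots, and 6.10% myoblast spots. Their leading genes were Dqx1 (58.4 against 6.37 CPM), Col9a1 (939 against 103), Inhba, Col9a3, Sp7, Ptgs2, Matn3, Ibsp, Tnc and Cnmd, at ratios from 9.17 to 7.54. Col9a1, Col9a3, Matn3 and Cnmd are cartilage matrix genes, Sp7 (osterix) is the transcription factor of bone-forming cells and Ibsp is bone sialoprotein. Col9a1, Col9a3, Matn3, Cnmd, Sp7 and Ibsp were themselves in the marker lists. Together, spots of the macrophage, myoblast or cartilage class held 28.0%, 36.1%, 53.1% and 52.3% of the set's UMIs at days 0, 1, 3 and 7. They held 26.1%, 22.6%, 35.6% and 31.5% of all UMIs, so the day 0 value was near that share. At days 3 and 7 about as many of the set's UMIs lay outside the 3 classes as inside them.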

How the data were processed

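The deposited values were whole-number UMI counts per feature and spot, which the authors had produced from 4 Visium sections (1 per day) and left unnormalized. Space Ranger 1.2.0 is named in the matrix headers, whereas the extract protocol of the labels names Cell Ranger 5.0.0 and the methods another release of Space Ranger. The build was mm10 per the labels. According to the methods, the authors kept spots over tissue from the images. All 10835 deposited spots entered the section sums. Doublets were not called, since spots are not cells. Of 4078 distinct barcodes, 1341 occurred in all 4 sections, as the arrays use a common set. Spot positions were not used here.

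Counts were summed by section and divided by the section total (CPM). Genes under 3 UMIs in a section were entered at 3, and features with at least 10 UMIs over both sections were compared. Within sections, spots of at least 2000 UMIs were used. Marker spots were the top 10% by share of a list, defined where the spots at the edge held a UMI of it. Intervals were exact Poisson, conditional binomial and Clopper-Pearson intervals at 95%. The reads behind a UMI are collapsed, but RNA lost in capture is not seen, so intervals and the entry of 3 UMIs cover counting error only. Thinning used 20 draws.

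The members, the 16 marker lists, the 4 pathway lists and the rules were chosen with earlier results of these data known. Named were, per role, the 3 members with the most UMIs, the 3 largest and 3 smallest ratios to day 0 on each day, members under 10 UMIs in a section, 3 genes at each end of a pathway list at day 3, and the 10 leading genes of the richest spots of at least 50 CPM. Other genes are named in the text as exceptions or ends of a range, chosen after their values were seen. Alternatives were TMM factors (edgeR 4.0.16), size factors (DESeq2 1.42.0), a total without muscle genes, depth, share and threshold settings, and, chosen after seeing the data, 4 equal groups of spots by myofibre share. Calculations ran in Python 3.11.15 with numpy 2.4.6, scipy 1.17.1, pandas 2.3.3 and R 4.3.3, and the steps were tested on simulated data. Promoter windows and start sites are RefSeq's.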

Additional observations from a re-analysis of the deposited data

Results flagged for a closer look

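The level of the 44 genes in myoblast spots over the rest of the section was 1.19, 2.43, 1.68 and 0.947 at days 0, 1, 3 and 7. The counting intervals lay above 1 at days 0, 1 and 3 and below 1 at day 7, so the sections differed in direction. This difference between days was not tested, since each day had 1 section. The day 7 value was 1.02 (0.965 to 1.08) with the top 5% of spots in place of the top 10%, so its direction was not settled by these data.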

How the results depend on the processing

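Across 104 alternative values, 55 stayed within the counting interval or within 1.5 times the count given. Another 35 lay outside it in the same direction and 14 changed direction. For medians, the median of the single-gene bounds stood in for that interval, and it is not a counting interval of the median. The 55 include the values without a minimum of UMIs, which could not differ, since all 44 genes passed that minimum. The 35 include the shares at the greater thinning depth, which keeps more UMIs per spot. With TMM factors the median log2 ratio of the 44 genes was 1.95 at day 3 and 0.35 at day 7. At day 7, 5 genes were then at least 2-fold higher, against 15.7% of all features. With DESeq2 size factors these were 1.94, 0.31 and 4, against 15.2% of all features. With the total without muscle genes the day 3 median was 2.08. Without Ube2c, which held the most UMIs, the summed ratio was 2.07 for day 7 over day 0 and 0.365 for day 7 over day 3. All 44 genes stayed above day 0 at day 3 under each scaling tried.

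For the ratio in marker spots, the top 5% of spots gave 0.974 for macrophage and 1.29 for myoblast spots at day 0, 1.89 and 2.96 at day 1, 1.87 and 1.62 at day 3, 0.958 for cartilage spots at day 3 and 1.02 for myoblast spots at day 7. A single marker threshold for all sections gave 1.68 and 3.07 for myoblast spots at days 0 and 1, 3.14 and 1.85 for macrophage and myoblast spots at day 3, and 1.05, 1.02 and 2.63 for macrophage, myoblast and cartilage spots at day 7. It left under 20 macrophage spots at day 0 and under 20 cartilage spots at days 0, 1 and 3, where it was not run. The total without muscle genes, by which the spots were also chosen, gave 0.925 for macrophage and 0.976 for cartilage spots at day 0, 1.25 and 2.21 for macrophage and myoblast spots at day 1, 1.56, 1.34 and 0.892 for macrophage, myoblast and cartilage spots at day 3, and 0.988, 0.792 and 2.97 at day 7. Spots of at least 5000 UMIs gave 1.34 for macrophage spots at day 1. Within the lowest of 4 equal groups of spots by myofibre share, which was chosen after seeing the data, the ratios for macrophage and cartilage spots were 0.919 and 0.865 at day 0, those for macrophage and myoblast spots 1.04 and 1.61 at day 1, and those for macrophage, myoblast and cartilage spots 0.989, 0.95 and 0.977 at day 3 and 0.646, 0.55 and 2.10 at day 7. Thinning to 5000 UMIs gave 49.8%, 46.3%, 85.0% and 62.1% of spots with a UMI of the set at days 0, 1, 3 and 7, and left out 1068 spots at day 1. The greater thinning depth keeps more UMIs per spot, and the cause of the other shifts was not tested. No paired analysis was possible because each day had 1 section.

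With 1 section per day, differences between animals, between injuries and between places in the muscle cannot be told apart from differences between days.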
